A study of Homo sapiens with 4 samples.

Results

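The regions described here are stretches of the genome that served as contact anchors in control IMR90 fibroblasts and held no anchor in any of the 3 senescent IMR90 libraries. Overlapping anchors of all 4 libraries were merged into 79742 regions. Of these, 27592 held an anchor of the control library and none of the senescent libraries, and they are called control-only regions. Another 38038 regions held anchors of both kinds and are called shared, and 14112 held senescent anchors only. Control-only regions thus made up 42.0% of the 65630 regions with a control anchor and 27.8% of the 318 Mb that control anchors cover. Membership rests on the presence of anchors in these same libraries, so what follows describes these libraries and carries no test between region classes.

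Histone H3 acetylated at lysine 27 (H3K27ac) marks active enhancers and promoters. HiChIP ligates neighbouring DNA ends inside fixed nuclei and then enriches ligated fragments with an antibody to the mark, so that each paired-end tag (PET) reports 1 contact between 2 anchors, at least 1 of them close to the mark. Enhancers reach distant promoters through such contacts, and senescence, in which cells stop dividing for good, is known to change which enhancers are active.

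The libraries come from IMR90 cells, a line of human lung embryonic fibroblasts. The senescent groups are cells driven into senescence through an inducible fusion of the estrogen receptor with oncogenic H-RAS. They carry either shcontrol, a control hairpin, or shMETTL3 or shMETTL14, which target subunits of the complex that writes N6-methyladenosine on RNA. They are set against a control library whose genotype is labelled WT. The labels of the control library name no hairpin, so senescence and the hairpin vector cannot be told apart in any senescent library set against it. The labels also do not say whether control cells carry the fusion gene. Each group is 1 library, so no difference between groups has a replicate check, and every interval below covers counting error only.

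The senescent shcontrol, shMETTL3 and shMETTL14 libraries hold 552029, 623930 and 936492 PETs, and the control library holds 998378. The senescent files draw on 1 set of 55317 anchors covering 232 Mb, and the control file uses its own 66743 anchors. A control-only region has no PET in a senescent file because no anchor was listed there, and whether acetylated chromatin contacts below the anchor threshold remained was not measured. With the control PETs drawn down to 552029, 26522 of the 27592 regions (96.1%) still held a PET, but anchors were not called again at that depth, so how depth bears on the anchor sets was not tested. All positions are on hg19, counted from 1.

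The edge of the rule was narrow for a small part of the members. The median gap to the nearest region with a senescent anchor was 8.99 kb, with quartiles of 3.26 and 21.1 kb. Senescent anchors lay within 1000 bp of 2112 control-only regions and touched 292 of them end to end. The regions on chromosome 1 from 6793512 to 6796432, from 8922622 to 8924368 and from 24977029 to 24979028, with 17, 22 and 18 control PETs, were such cases, just inside the rule. Just outside it, the shared region on chromosome 5 from 16684591 to 16688501 had an overlap of 83 bp between its control and senescent anchors, and those on chromosome 3 from 135736183 to 135741024 and chromosome X from 12405706 to 12410545 had overlaps of 91 and 104 bp. Their PETs in senescent shcontrol, shMETTL3 and shMETTL14 were 0, 2 and 10 on chromosome 5, 10, 2 and 10 on chromosome 3, and 1, 3 and 2 on chromosome X, against 8, 13 and 3 PETs in the control library. Only 346 shared regions overlapped by 1000 bp or less.

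Control-only regions were narrow and held few contacts. Every one of them consisted of 1 control anchor, and 97.3% of shared regions also held 1 control anchor. Width and membership are not independent, since a wider control anchor has more room to overlap a senescent one. The part of this in the values below was not tested. Their median covered length was 2.85 kb (quartiles 2.29 and 3.65 kb), against 4.64 kb (3.37 and 7.06 kb) in shared regions, a ratio of 0.614. They held a median of 10 PETs (5 and 18), against 23 (11 and 47) in shared regions, and reached a median of 7 partner regions (4 and 12), against 14 (8 and 22). A partner is any other region joined to it by at least 1 PET.

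**Figure D1:**
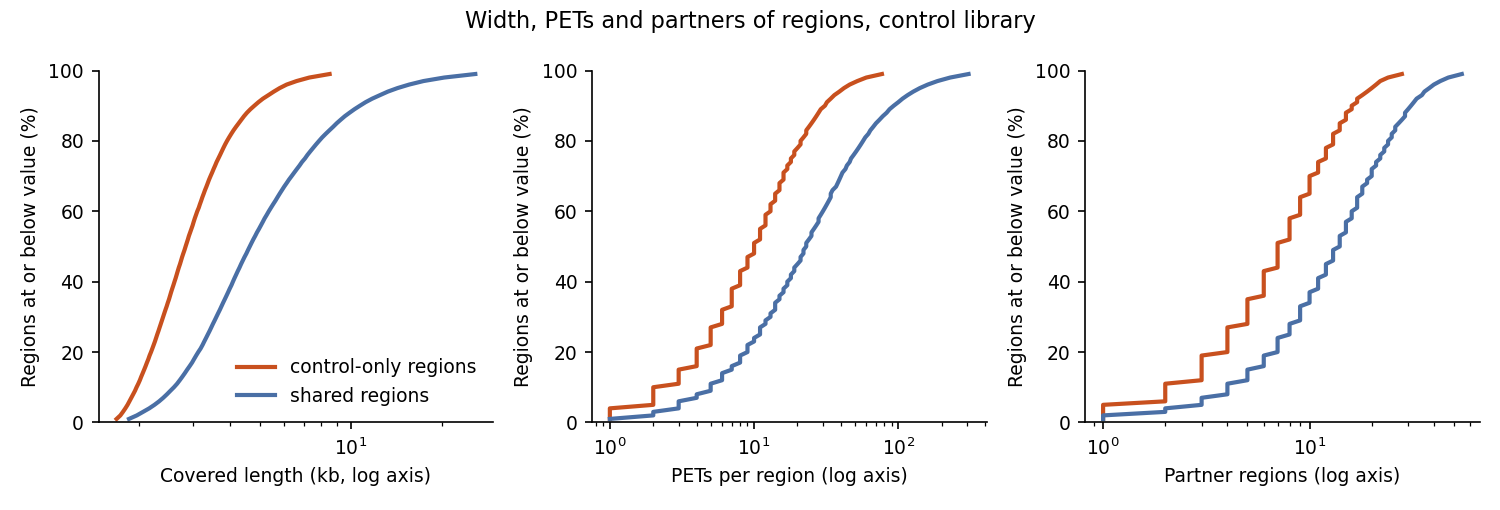
Cumulative share of control-only (orange) and shared (blue) regions, in percent on the vertical axes, by covered length in kb, PETs and partner regions in the control library, on log axes from the 1st to the 99th percentile. The control-only curve lies left of the shared curve in all 3 panels, with medians of 2.85 against 4.64 kb, 10 against 23 PETs and 7 against 14 partners.

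The tails of both classes overlapped widely. In 21.3% of control-only regions there were under 5 PETs, against 8.87% of shared regions, and 1326 of them rested on 1 PET. At the other end, 932 control-only regions (3.38%) had 50 PETs or more, 137 (0.497%) had 100 or more and 8 had 200 or more, while 23.8% of shared regions reached 50. The top 10% of control-only regions held 34.7% of the PET ends of the class, and the top 10% of shared regions held 43.4% of theirs.

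At matched width the gap in PETs was smaller. Among regions that cover 1.5 to 2.5 kb the median was 8 PETs in 9552 control-only regions and also 8 in 3214 shared regions. In wider bins control-only medians were lower. They were 13 against 19 PETs between 3.5 and 5 kb, 23 against 31 between 5 and 7.5 kb, and 67 against 106 in regions of 10 kb or more. The widest bin held 120 control-only regions and 4480 shared ones. It was not closely matched in width, since control-only regions reached 34.5 kb and shared regions 89.1 kb. Per covered kb its medians were 5.73 and 7.46 PETs. Over all widths the median per covered kb was 3.5 PETs in control-only regions and 4.90 in shared regions, a ratio of 0.715.

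**Figure D2:**
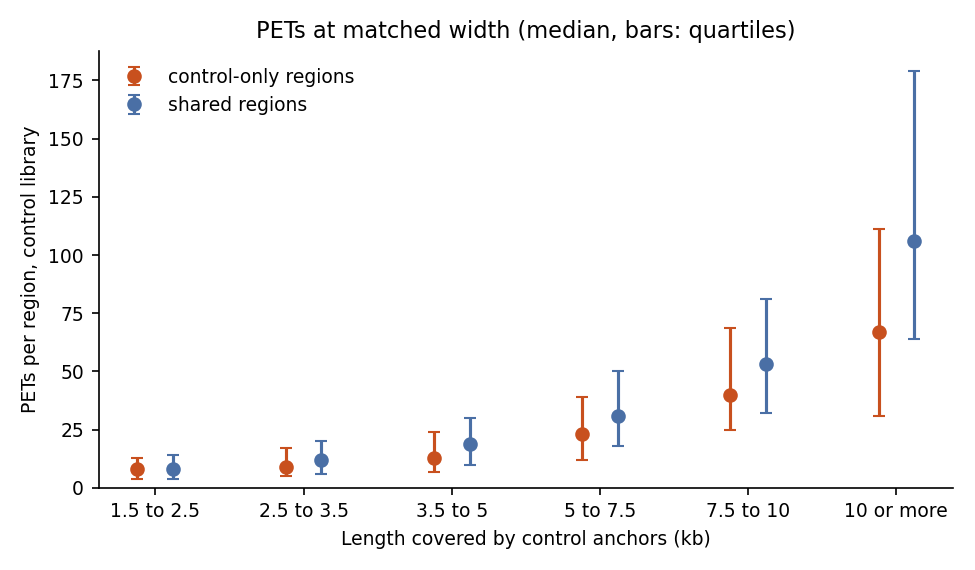
PETs per region in the control library (vertical axis) for 6 bins of length covered by control anchors in kb, with points at the median and bars to the quartiles. Control-only regions (orange) and shared regions (blue) had the same median of 8 PETs in the narrowest bin, and control-only medians were lower in the 5 wider bins, down to 67 against 106 PETs.

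Most contacts of control-only regions went to shared regions. PETs with at least 1 end in a control-only region numbered 358088, or 35.9% of the control library (95% interval 35.8 to 36.0, exact binomial). Of these, 87.7% had their other end in a shared region. PETs with both ends in control-only regions made up 4.42% (4.38 to 4.46), close to the 4.06% that the square of the class's share of PET ends (20.1%) gives. Their interactions were thin. Those with both ends control-only averaged 1.39 PETs and 79.4% of them were a single PET. Those with 1 control-only end averaged 1.8 PETs with 69.1% single, and those between shared regions 2.82 PETs with 58.5% single. The order was the same within each range of span: at 5 to 20 kb the averages were 2.23, 3.83 and 7.14 PETs, and at 200 to 500 kb 1.12, 1.34 and 1.93.

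The span of a contact is the distance between anchor midpoints, and the files list spans from 5 to just under 2000 kb. The PET-weighted median span was 75.3 kb with both ends control-only, 86.9 kb with 1 such end and 87.2 kb with both ends shared. For all PETs with a control-only end it was 85.7 kb, 0.983 of the value between shared regions. That ratio rests on the merging of close anchors: it became 1.04 when anchors up to 1000 bp apart were merged and 1.5 with anchors up to 5000 bp apart, so it has no settled direction. By bin, control-only regions took part in 41.9% of PETs between 5 and 20 kb (interval 41.6 to 42.1) and 32.6% between 20 and 50 kb (interval 32.4 to 32.8). The share was 34.3% between 100 and 200 kb and 37.6% above 1000 kb (interval 37.2 to 38.0). Their share was thus lowest at 20 to 50 kb and higher at both ends of the range.

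Called loops, meaning interactions of at least 4 PETs that join separate regions with the authors' FDR no higher than 0.01, involved control-only regions less often. Of 24780 such loops in the control library, 4582 (18.5%, 18.0 to 18.98) had a control-only end: 136 joined control-only regions to each other and 4446 joined one to a shared region. A called loop was present at 2901 control-only regions (10.5%), against 13237 shared regions (34.8%). Control-only regions with a loop had a median width of 3.88 kb and 37 PETs, and those without had 2.77 kb and 9 PETs. At matched width the difference in loops was smaller, with 31.7% of control-only and 42.0% of shared regions of 5 to 7.5 kb in a loop. Hubs with 5 or more called loops numbered 109 among control-only regions (0.395%), against 2872 among shared regions (7.55%), and the largest had 25 loops, against 45.

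Loops of control-only regions had nearly as many PETs as those between shared regions, and more of them were short. Loops with 1 control-only end had a median of 9 PETs (quartiles 5 and 13) and a median span of 134 kb, with a lower quartile of 21.8 kb and 53.5% at 100 kb or more. Loops between shared regions had 10 PETs (5 and 15) and 143 kb, with a lower quartile of 38.2 kb and 58.4% at 100 kb or more. Weighted by PETs, and over called interactions alone, the median span at control-only regions was 0.610 (0.60 to 0.623) of that between shared regions. That interval holds the median between shared regions fixed and treats each PET as independent, so it is too narrow for the ratio.

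The strongest control-only regions formed a pair on chromosome 12. The region from 66036534 to 66071063, also the widest of the class at 34.5 kb, held 915 PETs with 55 partners and 25 called loops, 1 of them spanning 1480 kb. Its neighbour from 66020251 to 66035641 held 723 PETs, 50 partners and 13 loops, and with 47.0 PETs per covered kb it was the densest of the class. The loop between these neighbours, at 300 PETs, was the strongest with both ends control-only. The next strongest such loop in the library had 56 PETs.

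Around this pair the senescent anchor set was not empty. The shared region on its left, from 65994113 to 66015857, was joined to the pair by loops of 136 and 115 PETs in the control library. It held 160 PETs in senescent shcontrol, 245 in shMETTL3 and 233 in shMETTL14, against 626 in control. Of the control PETs, 351 had their other end in a control-only region and so could not occur in a senescent file. Ratios of such totals therefore carry the rule within them, and PETs with both ends in shared regions are the ones both anchor sets can hold. They made up 79.7% of PETs in senescent shcontrol, 78.0% in shMETTL3 and 77.8% in shMETTL14, against 64.1% in control, and ratios of them are given per total of such PETs. At this region 138, 216 and 218 such PETs in senescent shcontrol, shMETTL3 and shMETTL14 stood against 275 in control, at ratios of 0.730 (0.591 to 0.899), 1.03 (0.861 to 1.24) and 0.697 (0.581 to 0.835). The value was thus lower than in control in 2 senescent libraries, and in shMETTL3 the interval includes 1. On the other side, 3 senescent-only regions lay between 66073404 and 66086041 and held 42, 34 and 28 PETs in senescent shcontrol and, by their definition, 0 in control.

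The pair also reached the shared region from 66211301 to 66254923, with 100 PETs to the wider region over 179 kb. That region held 171, 252 and 391 PETs to shared regions in senescent shcontrol, shMETTL3 and shMETTL14, against 355 in control, at ratios of 0.701 (0.581 to 0.844), 0.934 (0.792 to 1.10) and 0.968 (0.836 to 1.12). Its senescent anchors cover 32.7 kb and its control anchors 43.6 kb. Per covered kb the ratios were 0.936 in senescent shcontrol, 1.25 in shMETTL3 and 1.29 in shMETTL14. Within 250 kb of the centre of the wider region, called loops numbered 21 in senescent shcontrol, 29 in shMETTL3 and 28 in shMETTL14. The control library had 53, of which 25 had a control-only end and so could not occur in a senescent file. Over the whole libraries, called loops numbered 12658, 14125 and 19809 in the same order, against 24780 in control. PETs between shared regions of this window stood at 0.925 (0.815 to 1.05) of control in senescent shcontrol, 1.13 (1.003 to 1.27) in shMETTL3 and 0.964 (0.864 to 1.07) in shMETTL14. The intervals include 1 in senescent shcontrol and shMETTL14, and the lower bound in shMETTL3 lies just above 1.

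A cluster of 3 consecutive control-only regions on chromosome 7 came next. The regions from 81310687 to 81325624, from 81327828 to 81339321 and from 81342671 to 81359721 held 370, 215 and 283 PETs in the control library, with 43, 32 and 50 partners. All pairs among them were called loops, with 56, 48 and 45 PETs. The cluster also looped to the shared region from 81224759 to 81274043, with 86 PETs in the strongest such loop, from the first region to an anchor 60.7 kb away. That shared region held 299 PETs to shared regions in senescent shcontrol, 292 in shMETTL3 and 317 in shMETTL14, against 286 in control. These were 1.52 (1.29 to 1.80), 1.34 (1.14 to 1.59) and 0.974 (0.828 to 1.15) of the control value, higher in 2 senescent libraries and not distinguishable from control in shMETTL14. Senescent anchors cover 49.3 kb of the region and control anchors 43.1 kb, and per covered kb the ratios were 1.33, 1.17 and 0.852. In the window of 250 kb to either side, PETs between shared regions stood at 1.31 (1.10 to 1.55) in senescent shcontrol, 1.09 (0.910 to 1.29) in shMETTL3 and 0.802 (0.676 to 0.952) in shMETTL14. The senescent libraries thus differed in direction around this cluster.

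**Figure D3:**
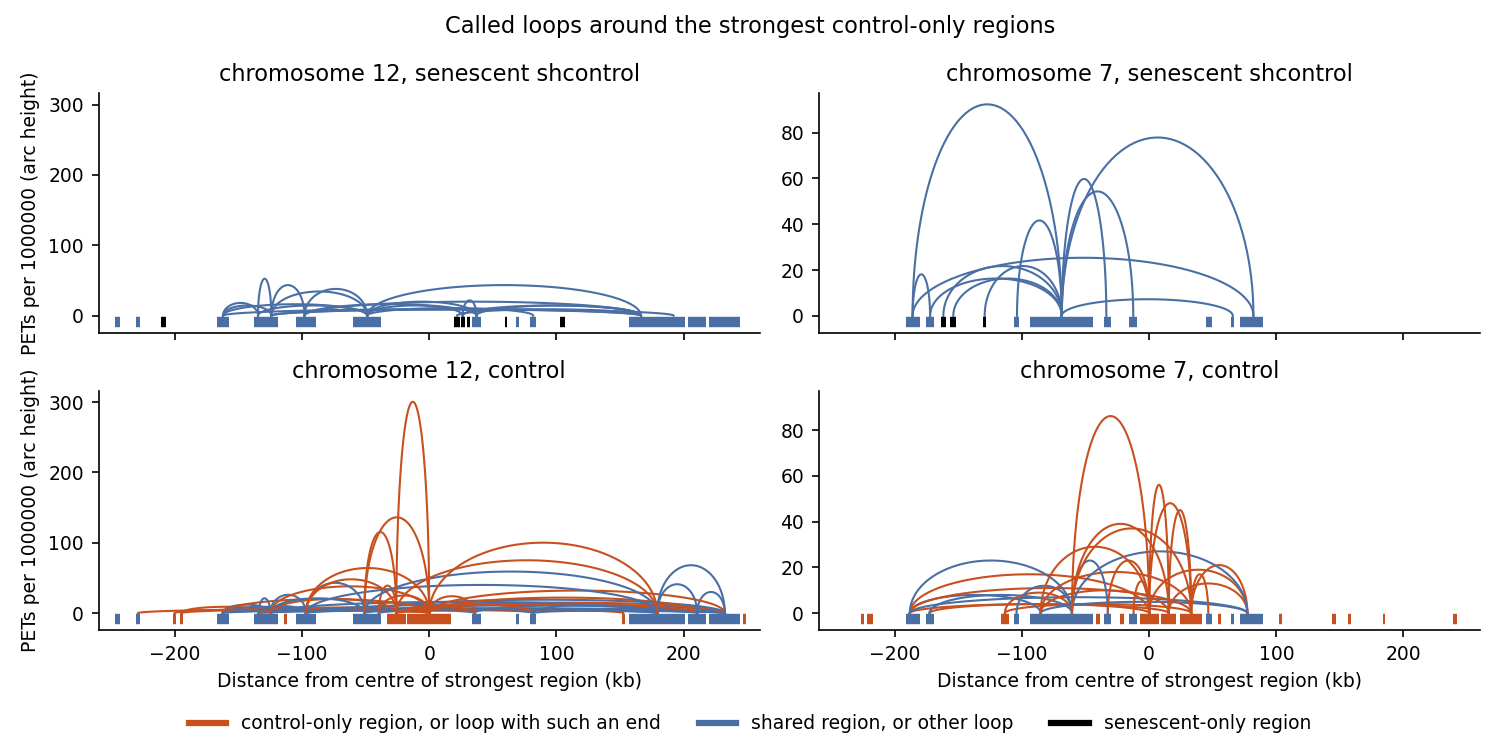
Called loops (arcs, height in PETs per 1000000 PETs of the library) and anchor regions (bars under the arcs) in senescent shcontrol (top) and control (bottom), by distance in kb from the centre of the strongest control-only region on chromosome 12 (left) and chromosome 7 (right). Orange marks control-only regions and loops with such an end, blue other regions and loops, black senescent-only regions. On chromosome 12 the control library has 53 loops, 25 with a control-only end, against 21 loops in senescent shcontrol. On chromosome 7 it has 29 loops, 21 with a control-only end, against 12 in senescent shcontrol. Loops with a control-only end cannot occur in a senescent file. The whole control library has 24780 called loops, against 12658 in senescent shcontrol.

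The other regions among the 10 with the most PETs lay on chromosomes 2, 9, 14 and 15. The region on chromosome 2 from 37990487 to 38000443 held 272 PETs, 91.2% of them to shared regions. Its main partner, the shared region from 38001215 to 38012162 next to it, sent 142 of its 522 control PETs to control-only regions. Its PETs to shared regions numbered 76 in senescent shcontrol, 105 in shMETTL3 and 109 in shMETTL14, against 380 in control. The ratios were 0.291 (0.224 to 0.373), 0.364 (0.290 to 0.453) and 0.252 (0.202 to 0.313), so this region was lower in every senescent library also where only contacts that both anchor sets can hold were counted. The senescent set covered 5.46 kb of it and the control set 10.9 kb, and per covered kb the values were 0.583, 0.729 and 0.505.

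On chromosome 14 the region from 69552850 to 69564543 held 202 PETs, 95.05% of them to shared regions, and on chromosome 9 the region from 113593742 to 113599855 also held 202, within 6.11 kb. The region on chromosome 15 from 99414701 to 99425040 held 195 PETs, of which 64 went to the adjoining shared region. Across these 10 regions, 47.4 to 95.05% of PETs went to shared regions, and the nearest senescent anchor was 0.676 to 20.4 kb away.

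Width and number of partners singled out other members. The region on chromosome 2 from 217533792 to 217564485 had the most partners, 59, over 30.7 kb, but only 6.09 PETs per covered kb. Its contacts were long, with a PET-weighted median span of 541 kb and 15 called loops of up to 1315 kb. Its strongest partner was the shared region from 218079250 to 218098748 with 22 PETs. The region on chromosome 2 from 46656829 to 46664971 reached 50 partners with 111 PETs. Among the widest regions, the one on chromosome 7 from 139375835 to 139404734 covered 28.9 kb with 19 PETs and no called loop, whereas the one on chromosome 22 from 30664637 to 30689429 covered 24.8 kb with 153 PETs and 9 loops. The fifth widest, on chromosome 14 from 89856340 to 89876339, held 114 PETs and 4 loops. A wide control-only region was therefore not always a strong one.

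Control-only regions were spread over all 23 chromosomes with control anchors. Their share of regions with a control anchor was between 39.4 and 44.3% on 21 of them. It was lower on chromosome 19, at 36.5% (675 of its regions), and higher on chromosome X, at 49.2% (701 regions). On chromosome X the regions of both classes were weak, with a median of 4 PETs in control-only regions and 9 in shared ones. There, 47.0% of PETs had a control-only end, followed by 41.1% on chromosome 22, 40.4% on chromosome 18 and 40.0% on chromosome 4, and the lowest share was 31.4% on chromosome 19. The senescent-only share of regions with a senescent anchor was also lowest on chromosome 19, at 18.8%. On chromosome X it was 30.9%, below only the 31.2% on chromosome 4.

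**Figure D4:**
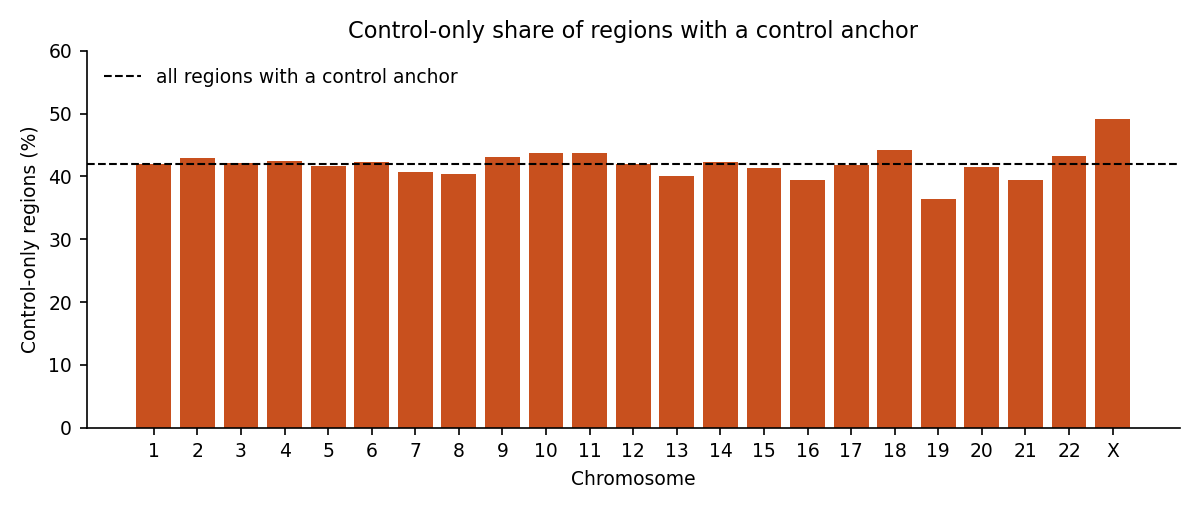
Share of regions with a control anchor that were control-only (vertical axis, percent) for each chromosome, with the share over all chromosomes, 42.0%, as a dashed line. Chromosome 19 is lowest at 36.5% and chromosome X highest at 49.2%.

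Along chromosomes the class was widely spread. The share of next regions that were control-only was slightly higher after a control-only region than after a shared one. Control-only regions occurred in 2502 of the 2601 windows of 1 Mb that hold a control anchor, with a median of 10 per window. The next region with a control anchor was control-only in 44.4% of cases after a control-only region, against 40.3% after a shared one. Counting senescent-only regions as breaks, the class fell into 16916 runs, 10582 of them single regions and 444 of at least 5. These counts were not set against a random order of regions. The longest run, 13 regions on chromosome X from 49132500 to 51610754, held only 42 PET ends summed over its regions. A run of 11 on the same chromosome, from 54946542 to 57149317, held 28, while the run of 11 on chromosome 4 from 187931072 to 188315925 held 195, with a median of 18 PETs per region.

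The windows with the most control-only regions also held shared and senescent-only regions. Chromosome 14 from 75 to 76 Mb had 39 control-only regions with a median of 19 PETs, 28 shared and 7 senescent-only. Chromosome 2 from 43 to 44 Mb had 38, with a median of 21.5 PETs, beside 28 shared. Chromosome 11 from 111 to 112 Mb had 33, and chromosome 11 from 47 to 48 Mb and chromosome 14 from 100 to 101 Mb had 32 each, at 16 and 17.5 PETs. In these 5 windows 51.6 to 58.2% of regions with a control anchor were control-only.

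The median distance from a control-only region to the nearest shared region was 11.4 kb, and to the nearest other control-only region 16.8 kb. The nearest senescent-only region was farther, at 61.3 kb, and 1977 control-only regions (7.17%) had one within 5 kb. For shared regions the order was the same. The nearest other shared region was at 9.5 kb, the nearest control-only region at 18.1 kb and the nearest senescent-only region at 50.7 kb. A senescent-only region lay within 5 kb of 9.49% of shared regions. The classes differ in number (38038 shared, 27592 control-only and 14112 senescent-only regions), and the part of this in the distances was not tested.

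Shared regions were also read by their distance to the nearest control-only region. A region was counted as lower where the scaled ratio was at least 2-fold below 1 with an exact conditional binomial 95% interval that excludes 1, among regions with at least 50 PETs over both libraries. With all PETs of a region counted, 15.4% of shared regions were lower in senescent shcontrol, 17.8% in shMETTL3 and 14.9% in shMETTL14, and 15.3%, 17.4% and 19.2% were higher by the same rule. The median log2 ratio in senescent shcontrol was -0.33 within 5 kb of a control-only region and 0.62 at 50 kb or more. These totals include control PETs to control-only regions, a median of 20% of a shared region's PETs, which are 0 in senescence by the rule. With only PETs between shared regions, the medians were -0.34 and 0.30 in senescent shcontrol, -0.37 and 0.36 in shMETTL3, and -0.30 and 0.43 in shMETTL14. By this count 22.0% of regions within 5 kb and 8.26% at 50 kb or more were lower in senescent shcontrol, beside 16.6% over all shared regions. The order over distance was the same, with a smaller range. Per covered kb the medians between shared regions were 0.14 and 0.45 in senescent shcontrol, so none fell below 0. The 3 comparisons share the control library, whose anchors define the distance, and these figures are a description.

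**Figure D5:**
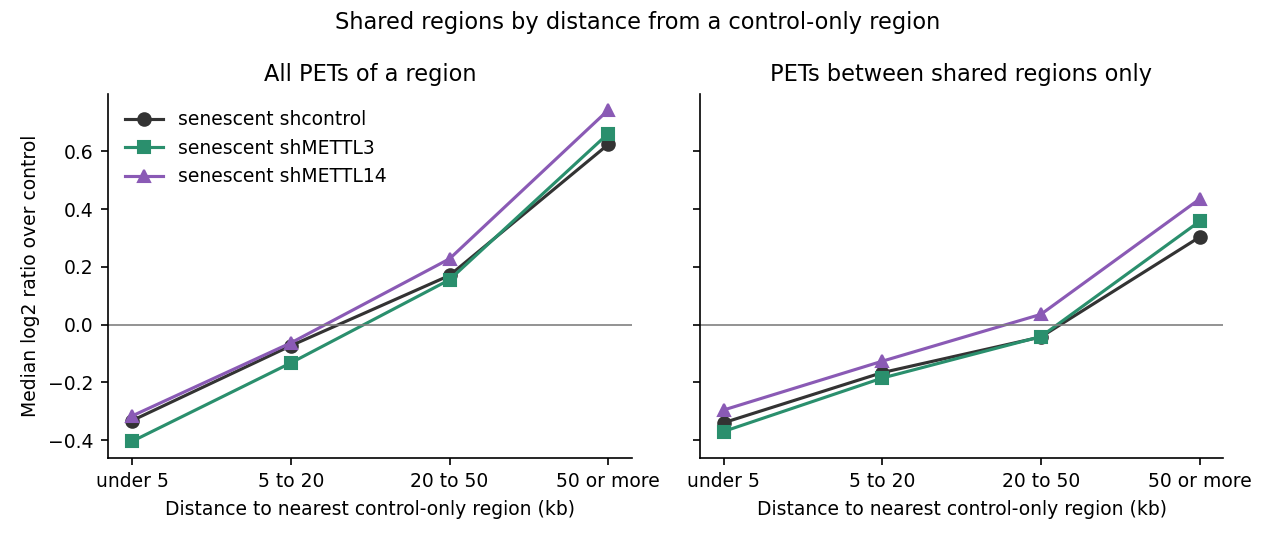
Median log2 ratio of PETs in each senescent library over control (vertical axis) for shared regions in 4 bins of distance in kb to the nearest control-only region, from all PETs of a region per 1000000 (left) and from PETs between shared regions per total of such PETs (right). In senescent shcontrol the medians run between -0.33 and 0.62 on the left and between -0.34 and 0.30 on the right, lowest under 5 kb in all 3 senescent libraries.

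The shared partners of called loops were read the same way. A called loop to a control-only region was present at 2626 shared regions, while 10611 had called loops to shared regions only. A median of 25.2% of the control PETs of these partners went to control-only regions, against 15.8% at the others, so ratios of all PETs are lower at the partners partly by construction. With all PETs counted, 688 of 2513 partners (27.4%) were lower in senescent shcontrol and 74 (2.94%) higher. With only PETs between shared regions, 563 of 2328 (24.2%) were lower and 64 (2.75%) higher, beside 16.6% and 11.3% of all shared regions, with a median log2 ratio of -0.43. Regions looped to shared regions only had 18.0% lower and a median of -0.19. In shMETTL3 28.1% of partners were lower and 2.46% higher, beside 18.3% and 13.6% of all, and in shMETTL14 26.3% and 2.29%, beside 15.6% and 15%. Regions looped to shared regions only had 20.2% lower in shMETTL3 and 19.2% in shMETTL14. By this count the partners were thus lower more often than these regions, and more often still than shared regions at large. Both looped groups were chosen by called loops in the control library, which is also the denominator of the ratios. A choice by high control values lowers such ratios in advance, and its part in these shares was not tested. Covered length moved with the result, with a median log2 ratio, senescent over control, of -0.50 at the partners and -0.35 at the others. Per covered kb, with all PETs, 4.74% of partners were lower in senescent shcontrol, 7.26% in shMETTL3 and 6.24% in shMETTL14, beside 2.4%, 3.52% and 2.6% of all shared regions. Per covered kb the median between shared regions in senescent shcontrol was 0.08 at the partners, not below 0. It stayed below the 0.19 at regions looped to shared regions only and the 0.23 over all shared regions. The part of anchor width in the result was not tested.

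Depth in the control library differed as well, since loop partners had a median of 136 control PETs and the others 62. With all PETs counted, the median in senescent shcontrol was -0.60 at partners and -0.20 at the others with 50 to 100 control PETs. It was -0.48 and -0.21 with 100 to 200 control PETs, and -0.37 and 0.03 with 200 or more. Such totals are lower at partners partly by construction, and the part of depth was not tested. The number of control-only partners did not order the values: between shared regions the medians were -0.38 with 1 such partner, -0.54 with 2 and -0.44 with 3 or more.

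Loops between shared regions could be looked for again in senescence, split by whether their ends also looped to control-only regions in the control library. Among control loops of 4 to 9 PETs between shared regions, 14.1% (12.04 to 16.3) were also called in senescent shcontrol where both ends had a control-only loop partner, and 15.3% (14.2 to 16.5) where neither had. At 20 PETs or more the shares were 60.4% (57.4 to 63.4) and 51.0% (47.7 to 54.3). In shMETTL14, the deeper library, they were 66.8% (63.9 to 69.6) and 55.7% (52.4 to 59.0). From 10 to under 20 PETs the shares were 33.5% (30.3 to 36.8) and 26.3% (24.7 to 27.9) in senescent shcontrol. They were 31.6% (28.4 to 34.8) and 27.3% (25.7 to 28.9) in shMETTL3, and 39.4% (36.1 to 42.8) and 32.6% (30.9 to 34.3) in shMETTL14. Among the weakest loops the intervals overlapped. Among the strongest, those at partners of control-only regions were found again in a larger share. In the middle bin this held in senescent shcontrol and shMETTL14, while the intervals overlapped in shMETTL3. Strength was matched only within these bins of PETs.

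The knockdowns differed little from senescent shcontrol at the shared partners of control-only regions. This measure uses no control PETs, but the partners were chosen by the control library. In shMETTL3 over shcontrol, 13 of 1982 partners were at least 2-fold higher (0.656%) and 23 lower (1.16%), beside 1.55% and 1.33% of all shared regions tested. In shMETTL14 17 of 2168 were higher (0.784%) and 19 lower (0.876%), beside 2.34% and 1.37%. The median log2 ratios were -0.08 and -0.06, against -0.02 and 0.00 over all shared regions. The shares were below or near those of all shared regions, whose median depth is lower (61 against 162 control PETs in the shMETTL3 comparison). The part of depth in this was not tested.

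Set beside their counterparts in senescence at equal depth, control-only regions had the same median strength. With control PETs drawn down to 552029 they held a median of 5 PETs and 4 partners at 2.85 kb, and senescent-only regions in senescent shcontrol also held 5 PETs and 4 partners, at 2.63 kb. The means were 8.04 and 8.84 PETs, and 96.1% of control-only and 89.2% of senescent-only regions held a PET. These values are not on equal terms. Control-only regions all held a PET in the library that was thinned, whereas senescent-only regions come from all senescent libraries and were read in senescent shcontrol alone. Shared regions held 13 PETs and 9 partners in the thinned control library and 14 and 9 in senescent shcontrol. The number of regions differed more than their strength, with 27592 control-only and 14112 senescent-only regions. The control set also has more anchors and covers more of the genome, and no source used here describes how either set was made.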

How the data were processed

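H3K27ac HiChIP was read from 4 libraries, 1 per group, grouped by the treatment label (control) or the genotype label (senescent libraries). For shMETTL14 the treatment protocol writes METTL4, and the genotype label was followed. HiC-Pro 3.1.0 and hg19 were used per the submitters' processing notes; for the calling of anchors and interactions, the caller is not given in the sources at hand. The deposited files have 8 columns and no header, with 1 pair of anchors per line. The seventh was read as the authors' raw count of PETs. The eighth was read as the authors' q-value (false discovery rate), and no header names it.

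Anchors that overlap by at least 1 bp were merged across files with Python 3.11.15 (pandas 2.3.3, scipy 1.17.1). A region's PETs and partners were counted once per region, and ratios were taken per 1000000 PETs with a pseudocount of 1 for log2 values. Ratios between shared regions use only PETs with both ends in shared regions, per total of such PETs. Thinning drew PETs without replacement (seed 1), keeping each deposited q-value. The merge, nearest-region search and 2-fold rule were tested on simulated data. Regions named are the 10 with most PETs, the 5 with most partners, the 5 widest, the top 5 loops with 1 and with both ends control-only, the 5 richest windows, the 3 longest runs and 3 at each side of the rule. Members and lists were chosen with earlier results of these data known. The locus window of 250 kb was chosen after values were seen. Gene names are not used here, since the gene table at hand is on another build. Single libraries give no tests, and intervals cover counting error only.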

Additional observations from a re-analysis of the deposited data

How the results depend on the processing

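The control-only class depended most on how near an anchor counts as the same place and on weak interactions. Merging anchors up to 5000 bp apart left 15066 regions with 17.7% of control PETs, and the ratios of control-only over shared regions became 0.508 in width, 0.333 in PETs and 1.5 in span. Gaps of up to 1000 bp gave 32.3% of PETs and ratios of 0.601 in width, 0.538 in partners and 1.04 in span. Regions at least 10 kb from any senescent anchor, an alternative chosen after seeing the data, numbered 12926 with 12.8% of PETs and ratios of 0.619 in width, 0.304 in PETs, 0.429 in partners and 1.54 in span. Only interactions of at least 2 PETs gave 30.1% of PETs and ratios of 0.601, 0.353, 0.40 and 0.664 in width, PETs, partners and span. Called interactions of the control file alone left 2901 regions with 14.7% of PETs and ratios of 0.530 in width, 0.579 in PETs and 0.610 in span. With the senescent shcontrol file as the only senescent one, 36.1% of PETs had a control-only end. Thinned control PETs gave ratios of 0.462 in PETs and 0.556 in partners, and 2892 called loops with a control-only end instead of 4582, while 10 PETs or more left 2164. The share of called loops with such an end was 17.6% and 17.5% in these settings. Shared loop partners lower in senescent shcontrol were 23.9% at 100 PETs or more and 4.74% per covered kb, against 27.4%, and 24.2% with only PETs between shared regions, an alternative chosen after seeing the data. Of 48 values under alternatives, 15 stayed within the interval or 1.5-fold of the reported value. Under every alternative the ratios of width, PETs and partners stayed below 1, while that of span did not. The cause of each shift was not tested. No paired analysis was possible because each group is 1 library. Positions where a senescent anchor fell just under the authors' threshold cannot be told apart from positions without acetylation, and 1326 members rest on 1 PET.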

Other observations

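In senescence, many control-only positions lay under loops between other regions. A called loop passed over 28.0% of control-only regions in senescent shcontrol, 27.1% in shMETTL3 and 42.7% in shMETTL14, and over 48.7% in the control library, which has the most called loops (24780, against 12658, 14125 and 19809 in the senescent libraries). For shared regions the shares were 32.2%, 31.6%, 46.7% and 49.7% in the same order, and for senescent-only regions 28.3%, 26.9%, 42.1% and 37.7%. Control-only regions thus had a share close to that of shared regions in the control library and a lower one in each senescent library, where it was near that of senescent-only regions. The mean number of loops over a region was lower at control-only than at senescent-only regions in these libraries. It was 1.06 against 1.36 in senescent shcontrol, 1.12 against 1.44 in shMETTL3 and 2.2 against 2.68 in shMETTL14. By the rule, only control loops can end on control-only regions and only senescent loops on senescent-only regions, so the contrast between libraries is partly built in. Shares also depend on the number of called loops in a library, and no test was made.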
